A study of Rattus norvegicus with 23 samples.

Results

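The comparison was between livers of rats given lipopolysaccharide (LPS) into the portal system and livers of untreated rats. Members were chosen by label alone: the 7 libraries labelled LPS and the 6 labelled as controls, 13 of the 23 libraries of a series on models in rats of portosinusoidal vascular disease, which affects small hepatic vessels. All rats were Sprague Dawley, and whole liver was taken. In the LPS group an indwelling line, placed in the gastric vein by laparotomy under isoflurane and fixed on the back in a harness, gave lasting access to the portal vein. Boluses of LPS (1 mg/kg) were given 2 times per week for 8 weeks. The Control group had no treatment, and no laparotomy, line or vehicle is given for it, so the surgery and the LPS cannot be told apart. The other group, Selfox (10 libraries), had a selenium-enriched diet for 8 weeks with 8 weekly intravenous injections of oxaliplatin (3 mg/kg), 5-fluorouracil (25 mg/kg) and folinic acid (45 mg/kg). It enters the fit, where it shares in the estimate of spread, and serves below as a second reference for LPS. With it left out of the fit 1900 genes were called, among them 75.3% of the 2217 given below. Neither age, sex, batch nor hour of collection is in the labels, and nothing in them says that each library is a different rat, so p-values measure the spread between libraries.

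LPS is the outer membrane glycolipid of Gram-negative bacteria. It reaches the liver from the gut through the portal vein, is carried by Lbp to Cd14 and Tlr4 on macrophages and endothelial cells, and is removed largely by Kupffer cells, sinusoidal endothelium and hepatocytes. Acute exposure switches on NF-kB targets and type I interferon genes and, through interleukin 6, the acute phase proteins of hepatocytes, while repeated exposure is known to blunt parts of that response. Hepatocyte lipid metabolism is set in part by opposed regulators. The SREBP factors switch on sterol and fatty acid synthesis, and LXR switches on fatty acid synthesis. PPAR-alpha switches on fatty acid oxidation and ketone synthesis in fasting.

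Depth differed between the groups, at 31889957 to 53806710 counts in Control and 70372293 to 79249765 counts in LPS. Albumin took 11.72% to 16.44% of counts in Control and 6.764% to 12.82% in LPS. In a principal component analysis of the 13 libraries the first component (27.27% of the variance) placed LPS at 19.4 to 36.68 and 5 Control libraries at -44.25 to -28.02. Control 55 stood apart from them at -1.045. Control 55, LPS 5, LPS 6 and LPS 7 had the clock output gene Dbp above the core clock gene Arntl. The pair oscillates in antiphase over the day (Dbp 34.2 CPM in Control 55 against 1.29 to 3.19 CPM in the other Control libraries). These 4 libraries, with Selfox 8, are called the late-clock libraries, and results were also computed without them. Of 9 liver genes only Cps1 was called between the groups. Of 8 exocrine pancreas genes 6 did not pass the low-count filter and Cpb1, a digestive enzyme, was called lower (0.0627 to 2.01 CPM in Control, median 1.22, and 0.0700 to 1.01 CPM in LPS, median 0.306, -1.78 ± 0.60, adjusted p = 0.049, lost, adjusted p up to 0.107, without Control 40, 41, 49 or 52 or LPS 1, 2, 3, 4, 5 or 6). Of 8 genes of muscle, fat, gut and kidney 6 did not pass and none was called. No columns were identical, and log2 CPM correlated at 0.9723 to 0.9814 between Control libraries and at 0.9764 to 0.9925 between LPS libraries.

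Livers of the LPS group had more messenger RNA for the sterol and fatty acid synthesis enzymes and less for fatty acid oxidation, for PPAR-alpha targets and for interferon-stimulated genes. Genes of periportal amino acid metabolism, of several secreted liver proteins and of cytosolic ribosomes were higher, and cell cycle genes were lower. Few genes of inflammatory cytokines, chemokines and NF-kB targets were called. A gene was called where edgeR's quasi-likelihood test, fitted to counts of all 3 groups, gave a Benjamini-Hochberg adjusted p under 0.05. Of 15079 genes tested 2217 were called (14.7%), 1163 of them higher in LPS (7.71%) and 1054 lower (6.99%), by at least 2-fold for 267 and 186. Without Control 49 the counts were 707 and 702. The median log2 fold change over all genes was 0.005803. All 7 LPS libraries lay above every Control library for 276 genes (1.83%) and below every Control library for 273 (1.81%), and 261 and 233 of these were also called. Where leaving out 1 library or the late-clock libraries ended a call, the highest adjusted p it gave stands beside the gene, and the estimate where it moved by over 1.5 times. Values below are CPM, the counts of a gene per 1000000 counts of scaled library size, and changes are log2 fold changes, LPS minus Control, ± SE.

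**Figure D1:**
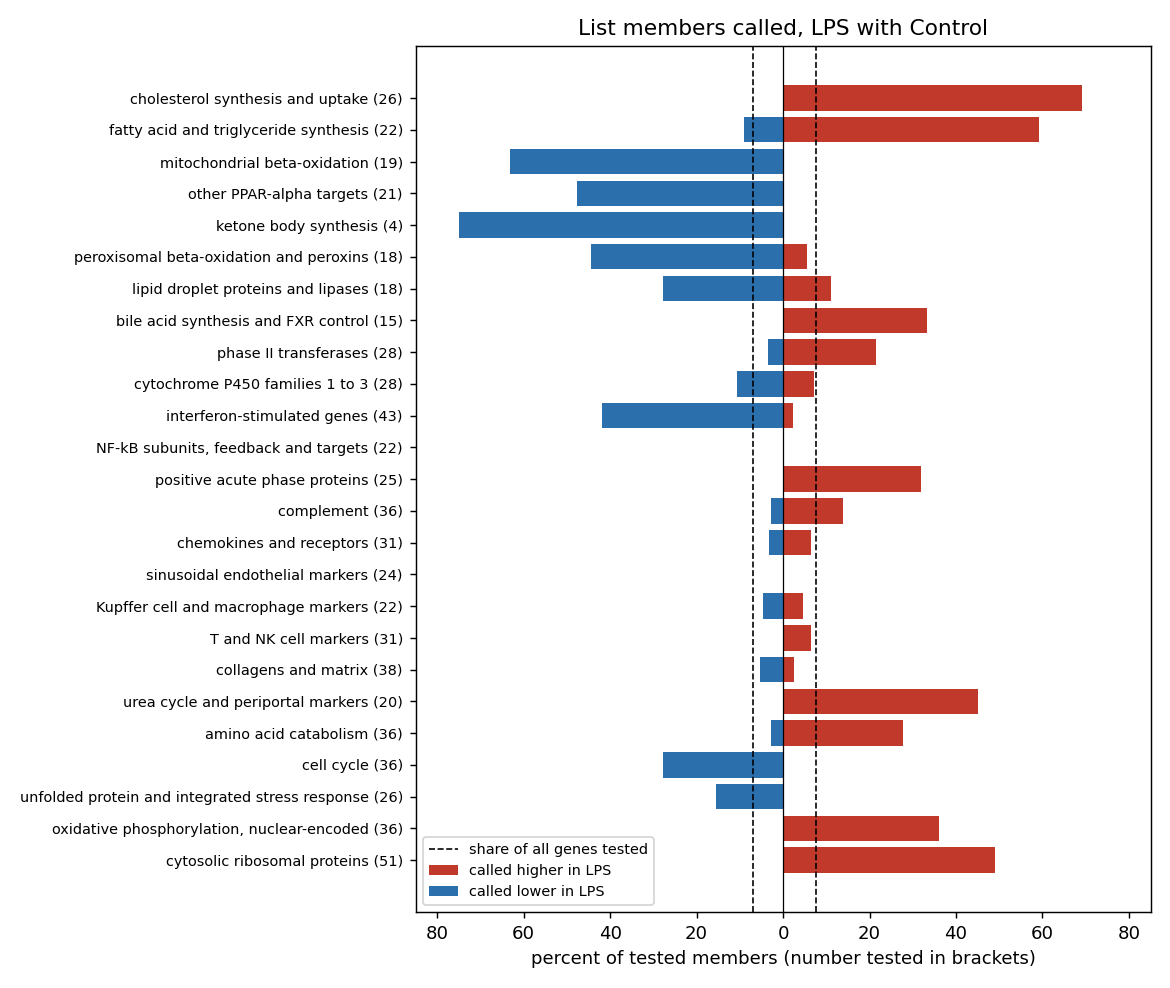
Share of the tested members of 25 gene lists called higher (right, red) or lower (left, blue) in LPS, in percent, with dashed lines at the shares over all genes, 7.71% and 6.99%. Cholesterol and fatty acid synthesis reach furthest to the right, and ketone synthesis and mitochondrial oxidation furthest to the left.

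The genes of this paragraph were among those with the lowest adjusted p-values in their direction. Xpnpep2, a membrane aminopeptidase that cleaves peptides after their first residue when proline follows, lay at 19.3 to 35.9 CPM (median 29.1) in Control and 67.5 to 135 CPM (median 83.0) in LPS. Every LPS library was above every Control library, and the change was 1.74 ± 0.18, adjusted p = 1.42e-05. Mknk2, a kinase that phosphorylates the translation factor eIF4E, lay at 55.7 to 92.5 CPM (median 63.0) in Control and 102 to 215 CPM (median 164) in LPS (1.22 ± 0.14, adjusted p = 3.19e-05), also without overlap. Mgam, the intestinal-type maltase-glucoamylase, rose by 1.10 ± 0.14 (adjusted p = 6.87e-05), Aldh9a1, an aldehyde dehydrogenase of carnitine synthesis, by 0.51 ± 0.062 (adjusted p = 3.60e-05), and Ahnak, a giant scaffold protein of the cell cortex, by 0.67 ± 0.087 (adjusted p = 7.70e-05). Each of the 3 had all 7 LPS libraries above every Control library. Pclo, a presynaptic scaffold gene, rose 5.13-fold from a low level (0.205 to 0.6255 CPM in Control, 1.05 to 2.62 CPM in LPS), and Gucy1a2, a subunit of the nitric oxide receptor guanylate cyclase, rose 2.22-fold (0.558 to 1.09 CPM in Control, 1.39 to 2.20 CPM in LPS). A gene model without a symbol, AABR07060341.2, rose by 1.15 ± 0.13 without overlap. Among the falls with the lowest p, Pla2g4c, a cytosolic phospholipase A2, lay at 2.97 to 8.05 CPM (median 5.57) in Control and 0.0750 to 0.742 CPM (median 0.402) in LPS and fell 13.9-fold (adjusted p = 5.88e-06). Fabp7, a fatty acid-binding protein best known from brain, lay at 164 to 482 CPM (median 273) in Control and 35.4 to 75.2 CPM (median 52.2) in LPS (-2.51 ± 0.27, adjusted p = 2.00e-05). Vwa8, an ATPase of mitochondria and peroxisomes, fell (-1.09 ± 0.14, adjusted p = 7.70e-05), as did Pxmp4, a peroxisomal membrane protein (-1.10 ± 0.14, adjusted p = 7.70e-05). So did Heatr4 (-1.56 ± 0.21, adjusted p = 0.000126) and, from 0.380 to 1.15 CPM, Adam22, a protease-like neuronal receptor (-2.99 ± 0.41, adjusted p = 0.000131). These 6 genes had every LPS library below every Control library.

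Sterol synthesis genes rose as a group. Of 26 genes of cholesterol synthesis and uptake 18 were called, all higher, with a median change of 0.85, and 26 of 26 estimates were above 0. Pmvk, phosphomevalonate kinase, lay at 13.4 to 24.8 CPM (median 16.9) in Control and 25.9 to 57.0 CPM (median 46.7) in LPS. It was the 1 member without overlap between the groups (1.28 ± 0.21, adjusted p = 0.000458). Dhcr7, which makes the last step to cholesterol, lay at 26.0 to 58.1 CPM (median 34.1) in Control and 54.2 to 138 CPM (median 67.8) in LPS, with 6 of 7 LPS libraries above every Control library (1.19 ± 0.23, adjusted p = 0.00187). Fdps, farnesyl diphosphate synthase, lay at 104 to 337 CPM (median 140.5) in Control and 279 to 579 CPM (median 350.3) in LPS, where Control 55 (337 CPM) was the highest of its group (1.28 ± 0.24, adjusted p = 0.00122). Of the other enzymes, Acat2 rose by 1.51 ± 0.35, Mvk, mevalonate kinase, by 1.01 ± 0.20, Fdft1, squalene synthase, by 0.99 ± 0.22, Cyp51, the sterol 14-demethylase, by 0.71 ± 0.19 and Ebp, the sterol isomerase, by 0.50 ± 0.13. Of regulators, Insig1, the sterol-responsive retention protein of SREBP, lay at 515 to 1028 CPM (median 725) in Control and 605 to 2093 CPM (median 1717) in LPS and rose by 1.05 ± 0.28 (adjusted p = 0.0162).

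Hmgcs1, Sqle and Srebf2 were not called. Hmgcs1, the synthase early in the pathway, stood at 0.42 ± 0.32 (adjusted p = 0.414). Sqle, squalene epoxidase, stood at 0.70 ± 0.29 (adjusted p = 0.11, but called, adjusted p down to 0.028, without Control 55 or with limma voom) and Srebf2, the sterol-sensing SREBP gene, at 0.36 ± 0.14 (adjusted p = 0.0795, but called, adjusted p down to 0.0106, without Control 55 or with limma voom). Control 55 lay within the range of LPS here. Its median over the list was 0.88 in log2 CPM relative to the mean of the other Control libraries. On that scale each of the other Control libraries lay between -0.42 and 0.19, and LPS libraries lay between 0.15 and 1.62. The count of 18 became 11 without Control 49 and 11 with Selfox left out of the fit.

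Fatty acid synthesis rose with it. Of 22 genes of fatty acid and triglyceride synthesis 13 were called higher and 2 lower, with a median of 0.85. Srebf1, which encodes the SREBP-1 factor that drives these genes, lay at 47.5 to 442 CPM (median 129) in Control and 334 to 789.8 CPM (median 524) in LPS. All LPS libraries but 1 were above every Control library (1.68 ± 0.40, adjusted p = 0.00741). Mid1ip1, which helps acetyl-CoA carboxylase to polymerise, lay at 9.95 to 67.4 CPM (median 18.1) in Control and 68.8 to 185 CPM (median 85.5) in LPS (1.98 ± 0.40, adjusted p = 0.00282). Lpin2, a phosphatidate phosphatase, lay at 22.2 to 49.8 CPM (median 30.9) in Control and 55.9 to 108 CPM (median 69.2) in LPS (1.04 ± 0.24, adjusted p = 0.00582). Neither gene overlapped between the groups. Fasn, fatty acid synthase, lay at 54.5 to 1550.5 CPM (median 123) in Control and 400.4 to 3595 CPM (median 1589.9) in LPS. Control 55 (1550.5 CPM) was the only Control library above 191 CPM, and LPS 4 (400.4 CPM) and LPS 6 (878 CPM) were the lowest of LPS. The change of Fasn was 2.41 ± 0.74, adjusted p = 0.0327 (4.08 without Control 55, lost, adjusted p up to 0.0723, without Control 40, 41, 46, 49 or 52 or LPS 5 or 7), and without Control 55 its adjusted p was 0.000143.

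Acss2, the cytosolic acetyl-CoA synthetase, rose by 1.59 ± 0.31 (adjusted p = 0.00193), Acacb, the acetyl-CoA carboxylase of the mitochondrial surface, by 1.83 ± 0.35 (adjusted p = 0.00156), and Slc25a1, the citrate exporter of mitochondria, by 0.62 ± 0.11 (adjusted p = 0.000955). Gpam, the first enzyme of glycerolipid synthesis, rose by 1.20 ± 0.31 (adjusted p = 0.0132), with LPS 6 (27.9 CPM) below every Control library and the other LPS libraries above. Scd, the stearoyl-CoA desaturase, rose by 1.90 ± 0.49 (lost with Selfox left out of the fit), and Thrsp, a lipogenic partner of Mid1ip1, by 1.92 ± 0.54 (3.03 without Control 55, lost, adjusted p = 0.0515, without Control 46). The calls of Acly (1.75 ± 0.53, 2.87 without Control 55, lost, adjusted p up to 0.0734, without Control 40, 41, 46, 49 or 52 or LPS 5 or 7), ATP citrate lyase, and Acaca (0.96 ± 0.32, lost, adjusted p up to 0.111, without Control 40, 41, 46, 49 or 52 or LPS 1, 2, 3, 5, 6 or 7), the cytosolic acetyl-CoA carboxylase, depended on single libraries. Elovl2, which elongates long polyunsaturated fatty acids, lay in the other direction, at 90.5 to 166 CPM (median 104) in Control and 47.9 to 81.5 CPM (median 67.4) in LPS, without overlap (-0.78 ± 0.14, adjusted p = 0.000977). Dgat1, a triglyceride synthase, fell (-0.27 ± 0.073, adjusted p = 0.0152). The count of 13 became 7 with Selfox left out of the fit. The sterol regulatory element TCACNCCAC, to which SREBP binds, was searched on both strands and was in 0 of 18 cholesterol list promoters, 0 of 18 promoters of this list and 1.15% of those of all genes tested. This says only that these letters are not in the 300-base windows. The median of the list in Control 55 was 0.81 against -0.47 to 0.10 in the other Control libraries and 0.30 to 1.24 in LPS.

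**Figure D2:**
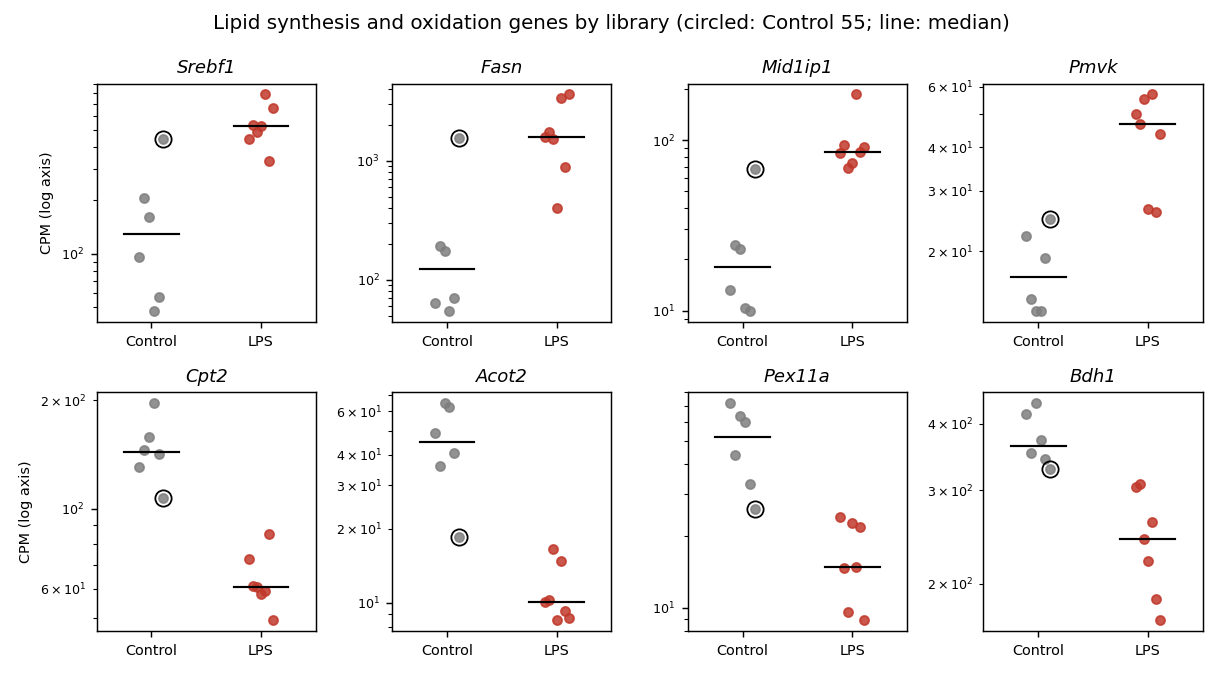
CPM (log axis) of 4 lipid synthesis genes (top) and 4 oxidation genes (bottom) in the 6 Control and 7 LPS libraries; each point is a library, lines are medians and Control 55 is circled. Control 55 lies with LPS for Srebf1 and Fasn and not for Cpt2, Pex11a or Bdh1.

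Of 18 lipid droplet proteins and lipases 2 were called higher and 5 lower, the latter 3 without Control 41, 46, 49 or 52 or LPS 3, 4, 5 or 7 and 3 without a low-count filter. Pnpla3, a patatin lipase of droplets that SREBP-1 induces, lay at 0.128 to 70.9 CPM (median 1.44) in Control and 10.5 to 472 CPM (median 90.2) in LPS, with Control 55 (70.9 CPM) above 3 LPS libraries. Its change was 3.56 ± 1.19 (6.60 without the late-clock libraries and 6.92 without Control 55, lost, adjusted p up to 0.1, without Control 40, 41, 46, 49 or 52 or LPS 1, 2, 3, 5 or 7). The related Pnpla5 rose by 3.12 ± 0.84 (lost with limma voom and with Selfox left out of the fit). The genes that fell serve triglyceride breakdown or droplet formation. Abhd5, the activator of the main triglyceride lipase, lay at 67.6 to 103 CPM (median 72.2) in Control and 45.6 to 62.1 CPM (median 52.3) in LPS. Fitm2, which buds droplets from the endoplasmic reticulum, lay at 47.9 to 75.8 CPM (median 63.9) in Control and 29.5 to 46.1 CPM (median 34.6) in LPS. Neither overlapped between groups (-0.58 ± 0.13, adjusted p = 0.00582, and -0.81 ± 0.16, adjusted p = 0.00231). Mgll, which splits the last acyl chain from glycerol, fell (-0.77 ± 0.13, adjusted p = 0.00045). Plin5, which ties droplets to mitochondria, changed by -1.94 ± 0.60 (lost, adjusted p up to 0.142, without Control 41, 46, 49 or 52 or LPS 3, 4, 5 or 7 or the late-clock libraries). Lipe, hormone-sensitive lipase, changed by -0.54 ± 0.18 (lost, adjusted p up to 0.114, without Control 41, 46, 49 or 52 or LPS 3, 4, 5 or 7). Plin2, the main droplet coat protein, was not called (0.36 ± 0.23, adjusted p = 0.301, 0.59 without the late-clock libraries, but called, adjusted p down to 0.0248, without LPS 6 or the late-clock libraries).

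Of 24 apolipoprotein and lipoprotein-handling genes 3 were higher (12.5%) and 2 lower (8.33%). Angptl8, a secreted regulator of lipoprotein lipase, lay at 10.5 to 52.4 CPM (median 21.0) in Control and 46.7 to 346 CPM (median 106) in LPS. The groups overlapped through 1 LPS library (2.35 ± 0.54, adjusted p = 0.00602). Apoa2, a protein of high-density lipoprotein, rose without overlap (0.74 ± 0.13, adjusted p = 0.000657), while Apoa5, an activator of lipolysis, and Lcat, which esterifies plasma cholesterol, fell (-0.55 ± 0.15, adjusted p = 0.0158, and -0.37 ± 0.082, adjusted p = 0.0044). Apob, the structural protein of very-low-density lipoprotein, was not called (0.25 ± 0.10, adjusted p = 0.0806, but called, adjusted p down to 0.0228, without LPS 6 or the late-clock libraries). Of 13 genes of the LXR axis Lpcat3, a phospholipid remodelling enzyme (0.34 ± 0.10, lost, adjusted p = 0.0507, without LPS 5), and Npc1, a lysosomal sterol transporter (0.61 ± 0.20, lost, adjusted p up to 0.104, without Control 40, 41, 46, 49 or 52 or LPS 1, 2, 5 or 7 or the late-clock libraries), were called. Nr1h3, which encodes LXR-alpha, was not called (0.26 ± 0.093, adjusted p = 0.0577, but called, adjusted p down to 0.0345, without Control 55 or LPS 1 or 2 or with DESeq2). No row for Mlxipl, the glucose-sensing partner of SREBP-1, was analysed here.

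Mitochondrial fatty acid oxidation fell. Of 19 genes 12 were called, all lower, with a median of -0.40, and leaving out any 1 library gave 10 to 12. The list median of Control 55, -0.41, was within the LPS range of -0.74 to -0.18, and the other Control libraries lay at -0.13 to 0.19. Cpt2, the inner-membrane carnitine palmitoyltransferase, lay at 107 to 196 CPM (median 144) in Control and 49.2 to 84.9 CPM (median 60.6) in LPS. Every LPS library was below every Control library (-1.20 ± 0.16, adjusted p = 0.000126). The same held for Slc25a20, the carnitine carrier (105 to 168 CPM in Control, median 138, and 71.2 to 95.6 CPM in LPS, median 83.2, -0.70 ± 0.11, adjusted p = 0.000369). It held too for Etfdh, which passes the electrons of oxidation to the respiratory chain (276 to 349 CPM in Control, median 299, and 173 to 276 CPM in LPS, median 248, -0.40 ± 0.092, adjusted p = 0.00546). Hadhb and Hadha, the subunits of the trifunctional protein, fell (-0.92 ± 0.13, adjusted p = 0.000153, and -0.55 ± 0.10, adjusted p = 0.000696). Eci1, an enoyl-CoA isomerase, fell 3.76-fold (-1.91 ± 0.34, adjusted p = 0.000974), Decr1, a dienoyl-CoA reductase, 1.91-fold (adjusted p = 0.00697), Acaa2, the last thiolase, 1.68-fold and Acad11 1.51-fold. Acadvl, the first dehydrogenase for very long chains, fell (-0.26 ± 0.063, adjusted p = 0.00848). Cpt1a, the gate of the pathway, lay at 345 to 717 CPM (median 479) in Control and 165 to 509 CPM (median 256) in LPS (-0.78 ± 0.22, adjusted p = 0.0185, -1.22 without the late-clock libraries, lost, adjusted p = 0.0641, without Control 49). Acadl changed by -0.32 ± 0.10 (lost, adjusted p up to 0.084, without Control 40, 41, 46, 49 or 52 or LPS 5, 6 or 7 or the late-clock libraries). Acadm, the dehydrogenase of medium chains, was not called (-0.15 ± 0.10, adjusted p = 0.301).

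Peroxisomal oxidation moved in the same direction for part of its genes. Of 18 genes 8 were lower, or 4 to 5 without Control 49 or 52 and 5 with Selfox left out of the fit, and 1 was higher. Ech1, a dienoyl-CoA isomerase, lay at 82.3 to 360.2 CPM (median 306) in Control and 44.2 to 84.4 CPM (median 70.5) in LPS, and 6 of 7 LPS libraries were below every Control library (-2.04 ± 0.26, adjusted p = 8.33e-05). Pex11a, which divides peroxisomes, lay at 26.0 to 72.1 CPM (median 51.9) in Control and 8.87 to 23.9 CPM (median 14.8) in LPS, without overlap (-1.58 ± 0.26, adjusted p = 0.000563). Crot, the carnitine octanoyltransferase, fell 3.06-fold (adjusted p = 0.00519), and the acyl-CoA thioesterase Acot4 3.91-fold (adjusted p = 0.000458). Hacl1, which shortens phytanic acid, changed by -1.10 ± 0.31 (lost, adjusted p = 0.0581, without Control 49). Hsd17b4, a multifunctional enzyme of the pathway, changed by -0.24 ± 0.073 (lost, adjusted p up to 0.0636, without Control 40, 46, 49 or 52 or LPS 5). Phyh changed by -0.48 ± 0.16 (-0.78 without the late-clock libraries, lost, adjusted p up to 0.102, without Control 40, 41, 49 or 52 or LPS 1, 2, 3, 4 or 5). Cat, catalase, was not called (0.02 ± 0.10, adjusted p = 0.904).

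Of 21 other PPAR-alpha targets 10 were called, all lower, with a median of -0.47. Acot2 and Acot3, acyl-CoA thioesterases of mitochondria and peroxisomes, lay at 18.5 to 64.8 CPM (median 44.9) in Control and 8.51 to 16.6 CPM (median 10.1) in LPS, and at 5.50 to 19.6 CPM (median 10.9) in Control and 1.78 to 4.87 CPM (median 2.64) in LPS. Vnn1, a pantetheinase, lay at 31.6 to 98.9 CPM (median 68.9) in Control and 4.30 to 29.9 CPM (median 6.10) in LPS. For these 3 genes every LPS library was below every Control library (-2.02 ± 0.25, adjusted p = 7.70e-05, -1.99 ± 0.31, adjusted p = 0.000381, and -2.54 ± 0.42, adjusted p = 0.000657). The fatty acid omega-hydroxylases Cyp4a1, Cyp4a2 and Cyp4a3 fell 4.56-fold, 7.09-fold and 2.99-fold, although reads of these near-identical genes may be split between them. Ephx2, a soluble epoxide hydrolase, lay at 4.94 to 212 CPM (median 134) in Control and 2.47 to 32.6 CPM (median 3.64) in LPS (-3.16 ± 0.76, adjusted p = 0.00822). Control 55 was the lowest Control library for Ephx2 (4.94 CPM) and for Cyp4a2 (596 CPM). Creb3l3, a liver transcription factor of fasting, fell (-0.52 ± 0.10, adjusted p = 0.00212), as did Mlycd, malonyl-CoA decarboxylase (-0.44 ± 0.089, adjusted p = 0.00231), and Retsat, a retinol saturase (-0.68 ± 0.13, adjusted p = 0.00193). Ppara itself lay at 42.9 to 53.2 CPM (median 46.7) in Control and 45.3 to 56.2 CPM (median 51.2) in LPS and was not called (0.11 ± 0.094, adjusted p = 0.457). Neither Pdk4 (0.24 ± 0.48, adjusted p = 0.781), which restrains glucose oxidation, nor Fgf21 (0.92 ± 0.47, adjusted p = 0.198), the fasting hormone, was called. Of 4 ketone synthesis genes 3 were lower. Bdh1 and Acat1, which make and interconvert ketone bodies, fell without overlap (-0.63 ± 0.12, adjusted p = 0.000974, and -0.60 ± 0.11, adjusted p = 0.000974). Control 55 had the lowest PPAR-alpha target median of its group, -0.62, within the LPS range of -0.71 to -0.21, while the other Control libraries lay at -0.11 to 0.24.

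**Figure D3:**
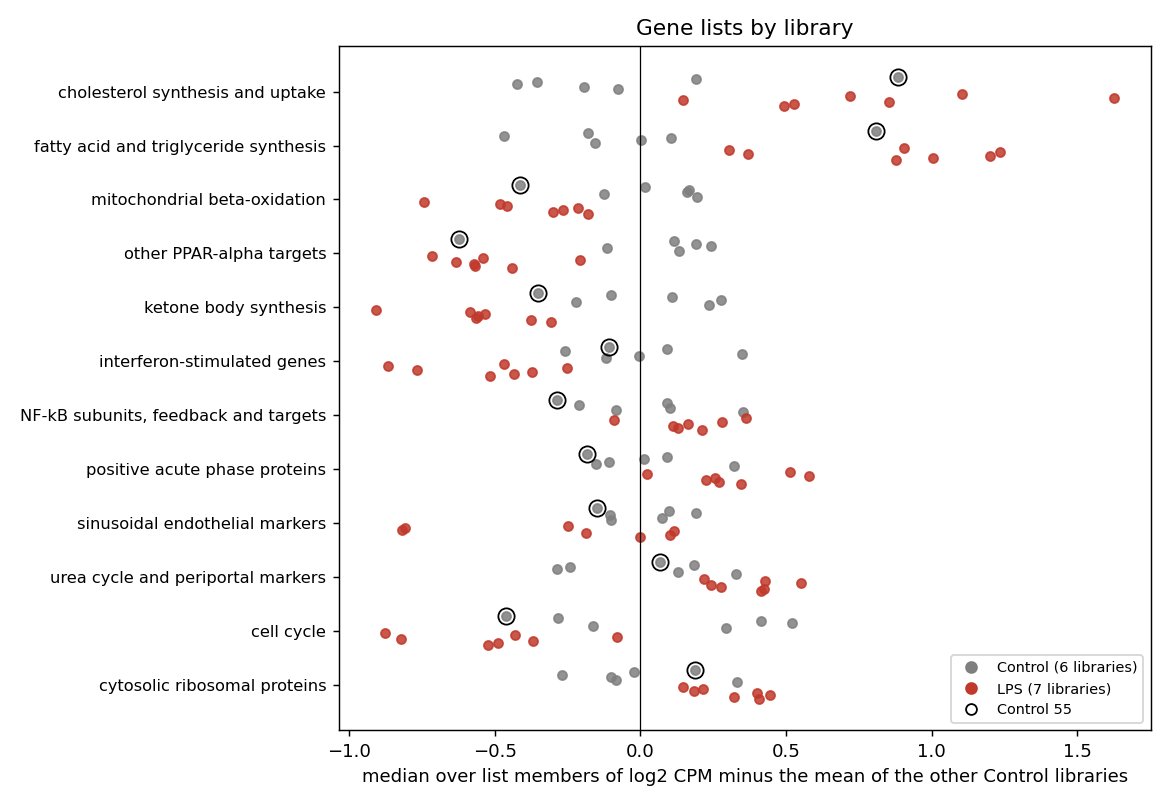
For 12 gene lists, the median over members of log2 CPM minus the mean of the other Control libraries, one point per library (grey Control, red LPS, Control 55 circled). Control 55 lies inside the LPS range for both synthesis lists, mitochondrial oxidation and the PPAR-alpha targets, and all 7 LPS libraries except LPS 5 lie below every Control library for interferon-stimulated genes.

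Interferon-stimulated genes were lower in LPS. Of 43 genes 18 were called lower and 1 higher, with a median of -0.47, and 17 had every LPS library below every Control library. These genes encode antiviral effectors and feedback proteins that type I interferon switches on through Stat2 and Irf9 at a promoter element, the interferon-stimulated response element. Its core was searched as GAAANNGAA on both strands, matches that overlap being merged, in RefSeq promoters of build GRCr8 (250 bases before to 50 after each start), which were found for 31 of the 43 genes. It was present in 22 of the 31 (71%), in 11 of the 14 called in either direction (78.6%) and in 7.89% of the promoters of all genes tested. The 11 include Ifitm3, the 1 member called higher. The 4 called members with a match and the lowest adjusted p are shown as 29 bases each, 5′ to 3′ on the strand of the gene, with the matched letters in capitals, because they show the element and its spacing. Windows with TTC at the left of the capitals hold the core as read on the other strand.
Oas1b: cccttcccggGAAATGGAAACTGAAaacc
Ifit3: ttaagtctgtTTCAGTTTCtagtttccac
Oasl2: aagctttggtTTCAGTTTCcaggcttgag
Oas1a: cccctctcggGAAATGGAAACTGAAaatc
They lie at chr12:41395893-41395921 (minus strand, first match 59 bases before the start), chr1:241527273-241527301 (plus strand, 43 bases before, the first of 2 matches), chr12:47383317-47383345 (minus strand, 150 bases before) and chr12:41330415-41330443 (plus strand, 41 bases before). Oas1a and Oas1b carry the same capital letters, 2 overlapping matches each, and are close relatives whose reads may be shared. A match is a description of letters in the window and not a binding site.

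Of these 4 genes 3 did not overlap between the groups. Oas1a and Oas1b, sensors of double-stranded RNA, lay at 12.6 to 31.97 CPM (median 15.5) in Control and 3.23 to 8.57 CPM (median 4.85) in LPS, and at 4.36 to 8.75 CPM (median 5.98) in Control and 1.01 to 2.85 CPM (median 1.78) in LPS. Ifit3, which binds viral RNA complexes, lay at 11.2 to 16.9 CPM (median 12.6) in Control and 3.72 to 6.75 CPM (median 5.40) in LPS. Oasl2 lay at 4.58 to 7.88 CPM (median 6.74) in Control and 2.60 to 4.60 CPM (median 3.60) in LPS. All 7 LPS libraries were below every Control library for Oas1a (-1.72 ± 0.37, adjusted p = 0.00432), Oas1b (-1.77 ± 0.32, adjusted p = 0.000974) and Ifit3 (-1.32 ± 0.29, adjusted p = 0.00392), and 5 of 7 for Oasl2 (-0.89 ± 0.19, adjusted p = 0.00392). Usp18, a feedback inhibitor of the interferon receptor, lay at 16.0 to 36.0 CPM (median 25.0) in Control and 4.26 to 13.6 CPM (median 5.31) in LPS (-1.81 ± 0.40, adjusted p = 0.00502), and the dynamin-like Mx1 and Mx2 at 12.9 to 20.9 CPM (median 16.0) in Control and 2.82 to 7.60 CPM (median 6.19) in LPS, and at 36.9 to 104 CPM (median 47.5) in Control and 10.1 to 26.5 CPM (median 12.2) in LPS. Both Mx genes fell without overlap (-1.60 ± 0.33, adjusted p = 0.00268, and -1.96 ± 0.42, adjusted p = 0.00401), as did Oas2 (-1.73 ± 0.42, adjusted p = 0.00822), Oas3 (-1.30 ± 0.31, adjusted p = 0.00706) and Rsad2, viperin (-1.12 ± 0.29, adjusted p = 0.0132).

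The factors that drive the response were among the genes that fell. Irf7, the amplifier of interferon production, lay at 25.8 to 33.5 CPM (median 28.4) in Control and 7.79 to 19.0 CPM (median 12.9) in LPS (-1.17 ± 0.31, adjusted p = 0.0141). Irf9 lay at 17.1 to 23.8 CPM (median 21.3) in Control and 9.61 to 14.7 CPM (median 11.1) in LPS (-0.81 ± 0.15, adjusted p = 0.00104). Neither gene overlapped between the groups, while Stat2 was not called (0.03 ± 0.11, adjusted p = 0.88). Isg15, the ubiquitin-like modifier, changed by -1.39 ± 0.40 (lost, adjusted p = 0.0793, without Control 46). Herc6, its presumed ligase, changed by -0.96 ± 0.27 (lost, adjusted p up to 0.0761, without Control 46 or the late-clock libraries). Cmpk2, a mitochondrial nucleotide kinase, changed by -0.77 ± 0.19 (lost, adjusted p = 0.0735, without the late-clock libraries). Eif2ak2, the RNA-dependent kinase PKR, changed by -0.39 ± 0.12 (lost, adjusted p up to 0.0704, without Control 41 or 46 or LPS 4 or the late-clock libraries). Ifi44 changed by -0.60 ± 0.19 (lost, adjusted p up to 0.149, without Control 40, 41, 46 or 49 or LPS 1, 4, 5, 6 or 7 or the late-clock libraries). The higher member was Ifitm3, an antiviral membrane protein (0.45 ± 0.15, 0.29 without the late-clock libraries, lost, adjusted p up to 0.282, without Control 40, 41, 49, 52 or 55 or LPS 2, 3, 4, 5, 6 or 7 or the late-clock libraries). The list gave 14 to 20 genes lower as single libraries were left out and 14 without the late-clock libraries. Against Selfox 10 of the 43 were lower in LPS and 1 was higher, beside 1035 and 1152 of all 15079 genes. The LPS minus Selfox change was -1.33 ± 0.38, adjusted p = 0.022 for Mx2, -0.93 ± 0.26, adjusted p = 0.0187 for Rsad2 and -0.40 ± 0.13, adjusted p = 0.047 for Irf9.

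**Figure D4:**
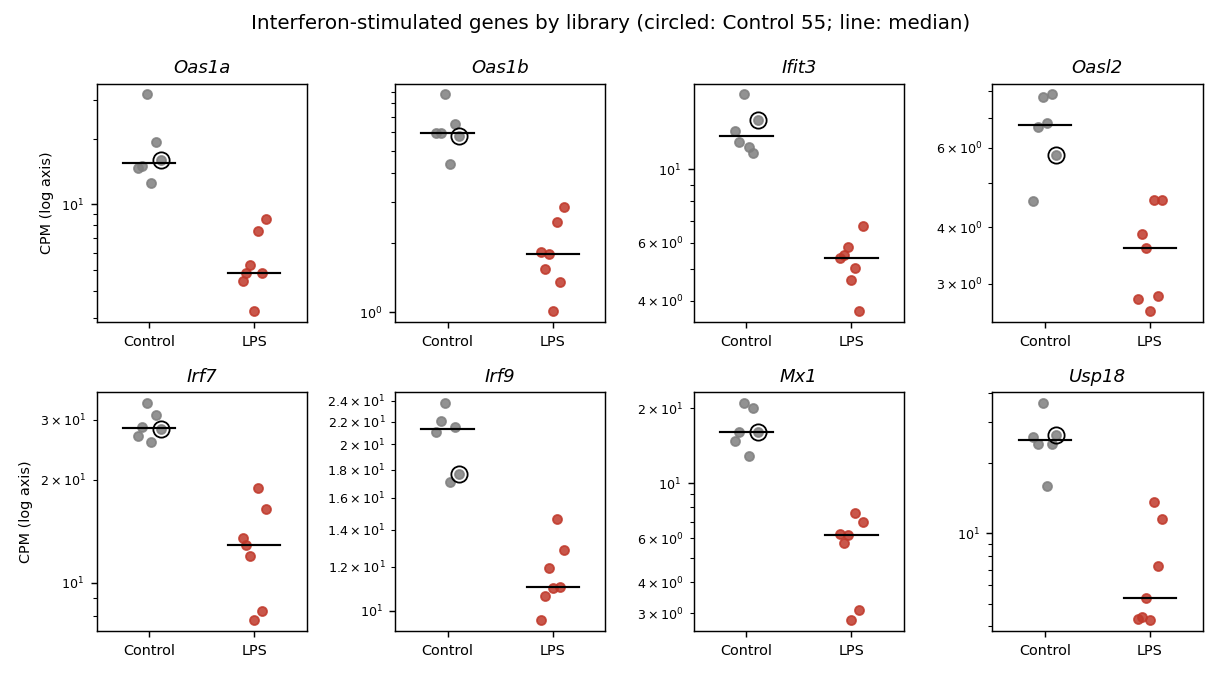
CPM (log axis) of 8 interferon-stimulated genes and regulators in the 6 Control and 7 LPS libraries; each point is a library, lines are medians and Control 55 is circled. The LPS libraries lie below every Control library for each gene except Oasl2, where 2 LPS libraries overlap.

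Of 16 genes of LPS sensing and clearance 1 was higher (6.25%) and 2 were lower (12.5%), against 7.71% and 6.99% of all genes. Tlr4, the receptor, lay at 2.10 to 3.48 CPM (median 2.68) in Control and 1.39 to 2.25 CPM (median 1.57) in LPS, and 6 of 7 LPS libraries were below every Control library (-0.74 ± 0.22, adjusted p = 0.025, lost, adjusted p up to 0.065, without Control 46 or 52). Aoah, an acyloxyacyl hydrolase that inactivates LPS by removing its acyl chains, lay at 0.469 to 1.41 CPM (median 0.907) in Control and 1.06 to 3.04 CPM (median 1.84) in LPS. It rose with 5 of 7 LPS libraries above every Control library (1.14 ± 0.27, adjusted p = 0.00734), and was also higher than in Selfox (1.31 ± 0.23, adjusted p = 0.000519). Irak1, a kinase below the receptor, changed by -0.22 ± 0.073 (lost, adjusted p up to 0.134, without Control 40, 46, 49 or 52 or LPS 2, 5 or 6 or the late-clock libraries). Cd14 (-0.01 ± 0.26, adjusted p = 0.991) and Lbp (0.60 ± 0.40, adjusted p = 0.332) were not called, and Lbp lay at 58.3 to 161 CPM (median 106) in Control and 83.3 to 315 CPM (median 117) in LPS. None of 22 NF-kB subunits, feedback genes and targets was called by edgeR with all 3 groups fitted, DESeq2 or limma voom, and 1 had an unadjusted p under 0.05. The count of higher members became 2 with Selfox left out of the fit. The median was 0.17, with 19 of 22 estimates above 0. Tnfaip3, the feedback deubiquitinase, stood at 0.67 ± 0.73, adjusted p = 0.58, but called, adjusted p = 0.0298, with Selfox left out of the fit. Nfkbia stood at 0.11 ± 0.41, adjusted p = 0.897 and Icam1 at 0.38 ± 0.65, adjusted p = 0.746.

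Of 23 interleukin, Tnf and receptor genes 1 was called. It was Il33, a nuclear alarmin made by endothelial, mesenchymal and stressed epithelial cells, at 61.3 to 101 CPM (median 77.0) in Control and 109 to 162 CPM (median 133) in LPS, without overlap (0.80 ± 0.13, adjusted p = 0.000504). Il1b lay at 4.64 to 68.2 CPM (median 11.7) in Control and 13.5 to 29.3 CPM (median 18.0) in LPS (-0.34 ± 0.62, adjusted p = 0.762). The estimate for Il6 was -2.45 ± 1.24 (adjusted p = 0.195), and Tnf and Ifng did not pass the low-count filter. Of 31 chemokines and receptors Ccl21, the lymphatic chemokine, changed by 0.56 ± 0.17 (lost, adjusted p up to 0.0802, without Control 41, 49 or 52 or LPS 4 or the late-clock libraries). Cxcl14 changed by 1.05 ± 0.33 (lost, adjusted p up to 0.1, without Control 41, 46, 49 or 52 or LPS 4, 5 or 7 or the late-clock libraries). Ccl2 (0.93 ± 1.11, adjusted p = 0.623) and Cxcl1 (1.34 ± 1.04, adjusted p = 0.416), which draw monocytes and neutrophils, were not called, and the SEs of both exceeded 1.

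Several secreted hepatocyte proteins rose. Of 25 positive acute phase genes 8 were called, all higher, with a median of 0.32. Kng1, kininogen, lay at 1267 to 2478 CPM (median 1541) in Control and 2863 to 10225 CPM (median 4107) in LPS. Cp, the copper oxidase ceruloplasmin, lay at 3011 to 4127 CPM (median 3587) in Control and 4479.9 to 7557 CPM (median 5636) in LPS. All LPS libraries were above every Control library for both (1.63 ± 0.30, adjusted p = 0.00111, 1.06 without the late-clock libraries, and 0.64 ± 0.15, adjusted p = 0.00676). Lcn2, an iron-sequestering protein of hepatocytes and neutrophils, lay at 0.282 to 2.41 CPM (median 0.811) in Control and 0.224 to 138 CPM (median 5.40) in LPS. LPS 5 alone reached 138 CPM while LPS 6 (0.224 CPM) was below every Control library. The change was 4.58 ± 1.30 (2.19 without the late-clock libraries and 2.22 without LPS 5, lost, adjusted p up to 0.15, without Control 49 or 52 or LPS 5 or the late-clock libraries). Hp, haptoglobin, changed by 0.57 ± 0.15 (lost, adjusted p = 0.0808, without the late-clock libraries). Orm1 changed by 1.00 ± 0.34 (0.50 without the late-clock libraries and 0.62 without LPS 7, lost, adjusted p up to 0.317, without Control 40, 41, 46, 49 or 52 or LPS 1, 5 or 7 or the late-clock libraries). Itih4 changed by 0.43 ± 0.13 (0.20 without the late-clock libraries, lost, adjusted p up to 0.258, without Control 41 or 49 or LPS 5 or 7 or the late-clock libraries). Fgl1, a fibrinogen-like hepatokine, changed by 0.60 ± 0.18 (0.31 without the late-clock libraries, lost, adjusted p up to 0.353, without Control 41, 46 or 55 or LPS 5 or 7 or the late-clock libraries). C3 changed by 0.32 ± 0.093 (lost, adjusted p up to 0.193, without Control 49 or LPS 7 or the late-clock libraries). The classical interleukin 6 targets Crp (0.02 ± 0.10, adjusted p = 0.907), Fgb (0.06 ± 0.18, adjusted p = 0.851) and Stat3 (0.14 ± 0.21, adjusted p = 0.702) were not called. The count of 8 became 4 to 5 without Control 41 or 49 or LPS 5 or 7, 4 with Selfox left out of the fit and 3 without the late-clock libraries. Of 10 negative acute phase genes Igfals, which carries IGF in plasma, fell without overlap (-0.53 ± 0.14, adjusted p = 0.0153). Alb was not called (-0.27 ± 0.14, adjusted p = 0.18).

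Of complement genes 13.9% were called higher, and of coagulation genes 9.38% (3 of 32), against 7.71% of all genes. The median changes of these lists were 0.05 and 0.09. Of 36 complement genes 5 were higher, or 3 without Control 49 or LPS 7 and 1 without the late-clock libraries, and 1 was lower. C4bpa, a fluid-phase inhibitor, lay at 815 to 948 CPM (median 894) in Control and 1027 to 1782 CPM (median 1287) in LPS (0.61 ± 0.15, adjusted p = 0.00981). Cfi, the protease that inactivates C3b, lay at 1008 to 1359 CPM (median 1186) in Control and 1369 to 1734 CPM (median 1399) in LPS (0.31 ± 0.078, adjusted p = 0.0101, lost, adjusted p = 0.0849, without the late-clock libraries). Neither overlapped between the groups. C9, the pore subunit, changed by 0.41 ± 0.13 (lost, adjusted p up to 0.164, without Control 41, 46, 49 or 52 or LPS 3, 4, 5 or 7 or the late-clock libraries). Fcna, a ficolin of Kupffer cells, changed by -0.74 ± 0.23 (lost, adjusted p up to 0.108, without Control 40 or 52 or LPS 4, 5 or 6 or the late-clock libraries). Of 32 coagulation genes Serpina10, the inhibitor of activated factor X that acts with protein Z, rose without overlap (19.3 to 23.6 CPM in Control, median 20.8, and 25.2 to 32.6 CPM in LPS, median 31.6, 0.50 ± 0.11, adjusted p = 0.00339). F9 changed by 0.30 ± 0.079 (lost, adjusted p = 0.0734, without the late-clock libraries). The fibrinogen genes, prothrombin (F2, 0.09 ± 0.073, adjusted p = 0.464) and antithrombin (Serpinc1, 0.18 ± 0.079, adjusted p = 0.137) were not called.

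Markers of liver vessels were examined because the models are of a vascular disease. In bulk tissue fewer cells of a type and less RNA per cell cannot be told apart. None of 24 sinusoidal endothelial markers was called by edgeR or limma voom, and 6 had an unadjusted p under 0.05. The count of lower members became 1 to 3 without Control 55 or LPS 1, 2 or 4, 1 with DESeq2 and 1 with upper-quartile factors. Their median was -0.24, with 21 of 24 estimates below 0. Nearest to the threshold were Lyve1, a hyaluronan receptor (-0.35 ± 0.12, adjusted p = 0.0606, but called, adjusted p down to 0.0252, without Control 55 or LPS 1 or 2, with upper-quartile factors or with DESeq2), and Fcgr2b, the scavenging immunoglobulin receptor (-0.35 ± 0.13, adjusted p = 0.0677, but called, adjusted p down to 0.0425, without LPS 1, 2 or 4). LPS 5 and LPS 6 had list medians of -0.82 and -0.81, while the other LPS libraries lay at -0.25 to 0.12 and Control libraries at -0.15 to 0.19. Of 26 vascular endothelial markers 2 were higher, or 7.69% against 7.71% of all genes. Of their estimates 14 were above 0 and 12 below, with a median of 0.04. Vwf, von Willebrand factor of larger vessels and capillarised sinusoids, lay at 8.73 to 10.4 CPM (median 9.65) in Control and 13.9 to 19.3 CPM (median 14.5) in LPS. It rose 1.61-fold without overlap (0.69 ± 0.11, adjusted p = 0.000365). Aqp1, a water channel of vessels and bile ducts, changed by 0.72 ± 0.22 (lost, adjusted p up to 0.0685, without Control 41, 49 or 52 or LPS 1 or 4). Cd34 (0.25 ± 0.21, adjusted p = 0.445) and Plvap (-0.17 ± 0.22, adjusted p = 0.659) were not called. Of 26 vasoactive and shear-responsive genes 1 was lower, Ddah1, which breaks down an inhibitor of nitric oxide synthase (-0.62 ± 0.18, lost, adjusted p up to 0.115, without Control 49 or 52 or LPS 3, 5 or 7 or the late-clock libraries). Nos3 (-0.10 ± 0.10, adjusted p = 0.557) and Edn1 (0.62 ± 0.57, adjusted p = 0.51) were not called. None of 19 VEGF, angiopoietin and PDGF genes and none of 17 Notch genes was called by edgeR, DESeq2 or limma voom, and 3 and 1 of them had an unadjusted p under 0.05. The count of higher members became 1 without LPS 6 for the former and 1 with Selfox left out of the fit for the latter.

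Single mesenchymal and duct markers were called higher. The shares were 4.76% of stellate, 21.4% of smooth muscle and 21.4% of cholangiocyte markers, against 7.71% of all genes. Of 21 stellate cell markers Tcf21, a transcription factor of mesenchyme, lay at 2.05 to 3.79 CPM (median 3.23) in Control and 3.94 to 7.51 CPM (median 5.64) in LPS, without overlap (0.89 ± 0.21, adjusted p = 0.00611). It was also higher than in Selfox (1.00 ± 0.18, adjusted p = 0.000531). Of 14 smooth muscle markers Tpm1, tropomyosin, rose without overlap (37.9 to 44.4 CPM in Control, median 42.0, and 50.7 to 70.5 CPM in LPS, median 56.2, 0.47 ± 0.09, adjusted p = 0.00141). Mylk, myosin light chain kinase, also rose without overlap (0.36 ± 0.094, lost, adjusted p = 0.0535, without the late-clock libraries). Myl9 changed by 0.35 ± 0.11 (0.53 without the late-clock libraries, lost, adjusted p up to 0.103, without Control 40, 41, 49 or 52 or LPS 1, 2, 3, 4 or 7). Acta2 (0.18 ± 0.17, adjusted p = 0.495) and Myh11 (-0.19 ± 0.13, adjusted p = 0.347) were not called. Of 14 cholangiocyte markers 3 rose, but 7 estimates were above 0 and 7 below, with a median of 0.02. The count of 3 became 1 with a minimum count of 50. The count of lower members became 2 without Control 41 or 55, with DESeq2 or with a minimum count of 50. Epcam, an adhesion molecule of bile ducts, went from 4.81 to 8.46 CPM to 9.11 to 14.1 CPM (0.71 ± 0.14, adjusted p = 0.00214). Krt7, a duct keratin, went from 0.0894 to 0.308 CPM to 0.357 to 0.726 CPM (1.44 ± 0.36, adjusted p = 0.0104), or 4 to 12 counts in each Control library and 27 to 56 in each LPS library. Cldn4, a tight junction claudin, rose as well (1.44 ± 0.37, adjusted p = 0.012). Epcam and Krt7 did not overlap between groups, while Krt19 (0.14 ± 0.20, adjusted p = 0.685) and Sox9 (-0.05 ± 0.41, adjusted p = 0.953) were not called. Of 38 collagen and matrix genes 1 was higher (2.63%) and 2 were lower (5.26%). The higher one was Ctgf, a matricellular YAP target (0.87 ± 0.27, lost, adjusted p up to 0.0823, without Control 40, 46, 49 or 52 or LPS 4 or 6 or the late-clock libraries). On the lower side were Mmp14, a membrane collagenase (-0.61 ± 0.17, lost, adjusted p = 0.0543, without Control 49), and Loxl2, a collagen crosslinker (-0.46 ± 0.15, lost, adjusted p up to 0.198, without Control 40, 41, 46, 49 or 52 or LPS 1, 2, 5, 6 or 7 or the late-clock libraries). Col1a1 (-0.30 ± 0.25, adjusted p = 0.458) and Col3a1 (0.15 ± 0.16, adjusted p = 0.565) were not called. Of 20 TGF-beta and activin genes 3 were higher (15%) and 2 lower (10%). The count of 3 became 0 to 1 without Control 40, 41, 46, 49, 52 or 55 or LPS 4 or 7 and 1 without the late-clock libraries. Inhbc, an activin subunit of hepatocytes, fell with 6 of 7 LPS libraries below every Control library (135 to 191 CPM in Control, median 176, and 61.1 to 144 CPM in LPS, median 106, -0.72 ± 0.14, adjusted p = 0.00167). Tgfb3, a TGF-beta ligand, changed by 0.83 ± 0.27 (0.54 without the late-clock libraries and 0.52 without LPS 7, lost, adjusted p up to 0.205, without Control 40, 41, 46, 49, 52 or 55 or LPS 1, 4 or 7 or the late-clock libraries). Ltbp1, a latent TGF-beta binding protein, changed by 0.46 ± 0.15 (lost, adjusted p up to 0.126, without Control 41, 46, 49, 52 or 55 or LPS 4, 5 or 7 or the late-clock libraries). Its relative Ltbp4 changed by 0.54 ± 0.15 (lost, adjusted p up to 0.0518, without Control 40 or 52). Tgfb2 changed by -0.997 ± 0.27 (lost, adjusted p = 0.057, without the late-clock libraries). Tgfb1 was not called (0.00 ± 0.15, adjusted p = 0.987).

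Of 15 B and plasma cell markers 3 were called, all higher. Igh-6, an immunoglobulin mu heavy chain gene, lay at 0.948 to 12.8 CPM (median 2.45) in Control and 27.9 to 49.5 CPM (median 30.0) in LPS. Jchain, which joins IgM and IgA into polymers, lay at 1.96 to 5.96 CPM (median 4.96) in Control and 8.12 to 23.2 CPM (median 10.3) in LPS. Every LPS library was above every Control library for both (3.14 ± 0.55, adjusted p = 0.000955, and 1.55 ± 0.32, adjusted p = 0.00311). Both were also higher in LPS than in Selfox (2.51 ± 0.44, adjusted p = 0.000578, and 1.30 ± 0.27, adjusted p = 0.00255). Pigr, which carries IgA into bile, rose by 0.27 ± 0.071 (lost with Selfox left out of the fit). Ms4a1 (-0.30 ± 0.39, adjusted p = 0.66) of B cells and Mzb1 (0.28 ± 0.31, adjusted p = 0.591) of plasma cells were not called, and the median of the list was -0.21. Reads of immunoglobulin gene segments may be shared between near-identical copies.

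Of 22 Kupffer cell and macrophage markers Adgre1, the F4/80 receptor, was higher and Fcna was lower. Adgre1 lay at 31.6 to 57.6 CPM (median 36.6) in Control and 37.5 to 93.7 CPM (median 62.2) in LPS, with 5 of 7 LPS libraries above every Control library (0.68 ± 0.18, adjusted p = 0.0132). Cd68 (-0.13 ± 0.15, adjusted p = 0.588), Marco (-0.23 ± 0.15, adjusted p = 0.316) and Clec4f (-0.39 ± 0.15, adjusted p = 0.0861, but called, adjusted p = 0.0336, without LPS 7) were not called, and 18 of 22 estimates were below 0. Of 14 monocyte and dendritic cell markers Fcgr3a, a low-affinity immunoglobulin receptor, fell without overlap (6.24 to 7.46 CPM in Control, median 6.45, and 3.31 to 5.49 CPM in LPS, median 4.35, -0.63 ± 0.16, adjusted p = 0.0101). Of 31 T and NK cell markers 2 were called, Cd2 (1.01 ± 0.28, lost, adjusted p = 0.124, without the late-clock libraries) and Gzma, a granzyme (0.55 ± 0.17, lost, adjusted p up to 0.0937, without Control 41, 46, 49 or 55 or LPS 1, 2 or 7 or the late-clock libraries). Of the 31 estimates 24 were above 0. The count of higher members was 6 with DESeq2 and 4 with limma voom, at equal depth or without LPS 3. It was 1 without Control 41, 46 or 49 or LPS 1 or 7. Without the late-clock libraries none was higher and 2 were lower. The MHC class II genes RT1-Ba and RT1-Da, whose relatives may share reads, changed by 0.58 ± 0.18 (lost, adjusted p up to 0.114, without Control 40, 41, 46 or 55 or LPS 4 or 7 or the late-clock libraries) and 0.48 ± 0.16 (lost, adjusted p up to 0.152, without Control 40, 41, 46, 52 or 55 or LPS 4 or 7 or the late-clock libraries). Of 9 mast cell, basophil and eosinophil markers 2 were lower, but 6 estimates were above 0 and 3 below, with a median of 0.50. Kit, the stem cell factor receptor of mast cells and some ducts, changed by -0.53 ± 0.13 (lost, adjusted p = 0.0579, without the late-clock libraries). Hdc, histidine decarboxylase, changed by -1.45 ± 0.48 (-2.51 without the late-clock libraries, lost, adjusted p up to 0.0995, without Control 40, 41, 46, 49 or 52 or LPS 1, 2, 3, 4, 6 or 7). Of 10 neutrophil markers only Lcn2 was called, and S100a8 was not (0.18 ± 0.80, adjusted p = 0.911).

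**Figure D5:**
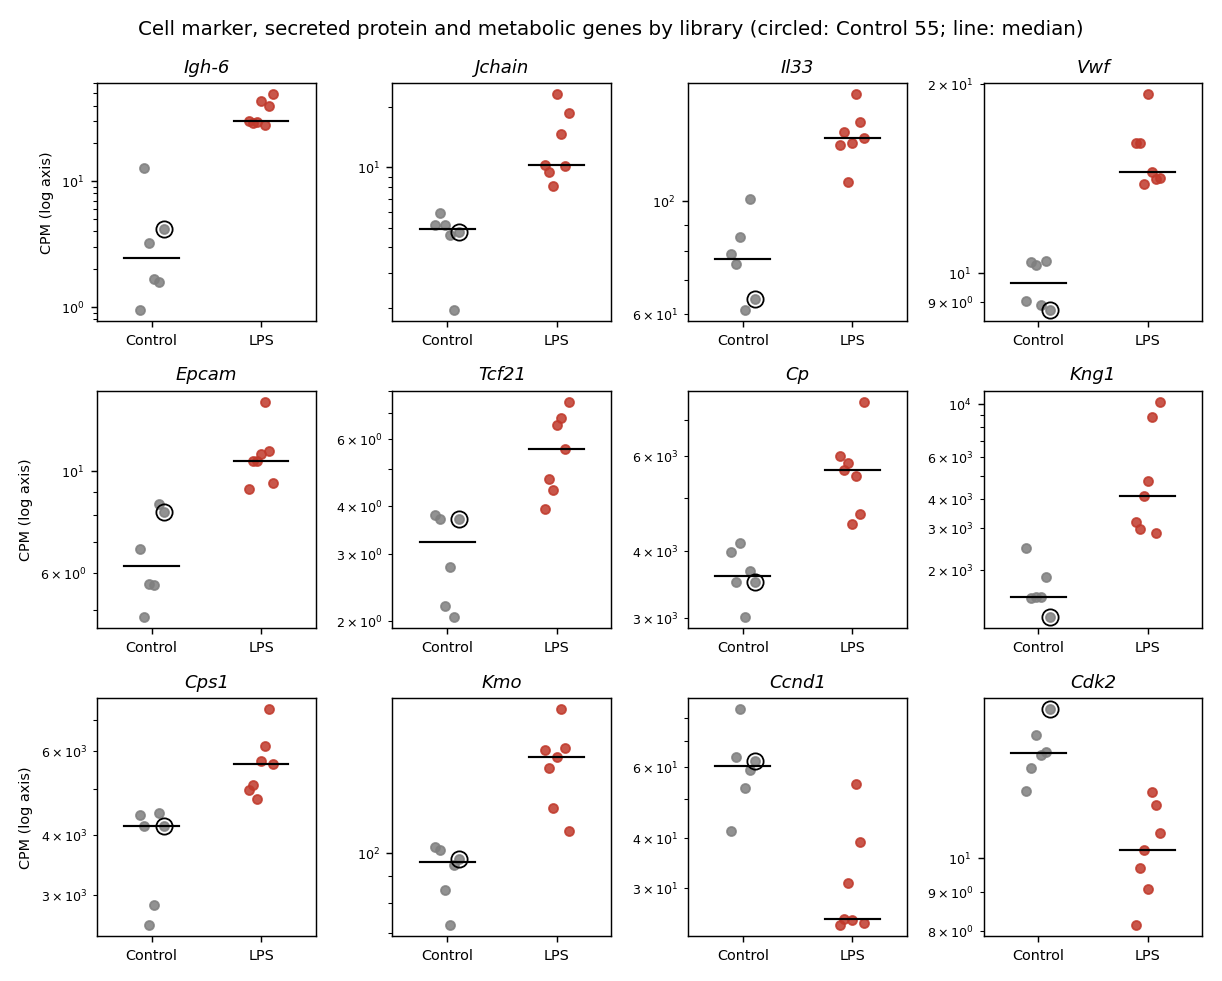
CPM (log axis) of 12 cell marker, secreted protein and metabolic genes in the 6 Control and 7 LPS libraries; each point is a library, lines are medians and Control 55 is circled. All LPS libraries lie above every Control library for each gene of the top 2 rows and for Cps1 and Kmo, below every Control library for Cdk2, and overlap in 1 library for Ccnd1.

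Of 28 cytochromes P450 of families 1 to 3, 2 were higher (7.14%) and 3 lower (10.7%), against 7.71% and 6.99% of all genes. Cyp2b2, a phenobarbital-inducible enzyme with a near-identical relative, lay at 15.2 to 125 CPM (median 59.9) in Control and 5.40 to 19.8 CPM (median 6.48) in LPS (-2.65 ± 0.43, adjusted p = 0.000507). Cyp2a1, a testosterone hydroxylase, lay at 515 to 823 CPM (median 639.8) in Control and 725 to 1027 CPM (median 898) in LPS (0.48 ± 0.11, adjusted p = 0.00465). Cyp1a1, the main target of the aryl hydrocarbon receptor, lay at 0.103 to 1.99 CPM (median 0.397) in Control and 0.350 to 46.1 CPM (median 1.79) in LPS. LPS 1 (46.1 CPM) and LPS 2 (28.9 CPM) were far above the rest, and 4 LPS libraries lay within the Control range. Its change was 4.17 ± 1.14 (lost with limma voom and with Selfox left out of the fit). Tiparp, a second target of that receptor, rose with 6 of 7 LPS libraries above every Control library (12.7 to 24.5 CPM in Control, median 16.1, and 20.8 to 53.1 CPM in LPS, median 30.1, 1.04 ± 0.25, adjusted p = 0.00734). Arnt, its partner, rose by 0.32 ± 0.081 (adjusted p = 0.0107), and Ahr itself was not called (-0.53 ± 0.20, adjusted p = 0.0717, but called, adjusted p down to 0.00373, without Control 55 or LPS 4 or the late-clock libraries, with DESeq2 or with limma voom). Cyp2d5 changed by -0.52 ± 0.14 (lost, adjusted p = 0.0854, without the late-clock libraries). Cyp2j4, an arachidonate epoxygenase, changed by -0.90 ± 0.25 (lost, adjusted p = 0.0609, without the late-clock libraries). The receptors Nr1i3, or CAR (-0.77 ± 0.27, adjusted p = 0.0627, but called, adjusted p down to 0.0261, without Control 41 or LPS 4 or with DESeq2), and Nr1i2, or PXR (-0.00 ± 0.11, adjusted p = 0.995), were not called. Without the late-clock libraries 7 of the 28 were higher and 1 was lower, and without Control 55 4 were higher.

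Of 28 phase II transferases 6 were higher, or 11 with limma voom, and 1 was lower. Gsta4, the glutathione transferase for lipid peroxidation aldehydes, lay at 40.5 to 58.7 CPM (median 48.3) in Control and 71.6 to 92.4 CPM (median 76.6) in LPS, without overlap (0.65 ± 0.089, adjusted p = 0.000126). Sult1a1, the phenol sulfotransferase, rose by 0.53 ± 0.12 (adjusted p = 0.00624), Gstt1 by 0.53 ± 0.15 (adjusted p = 0.0169) and Gstk1 by 0.31 ± 0.076 (adjusted p = 0.00914), with reads that relatives may share. Mgst1 changed by 0.34 ± 0.094 (lost, adjusted p = 0.0588, without Control 49). Sult1c3 changed by -0.34 ± 0.093 (lost with Selfox left out of the fit). Of 19 transporters 3 of the SLC22 family fell. They were Slc22a8, an organic anion carrier (-0.67 ± 0.14, adjusted p = 0.00272), Slc22a23, an orphan member (-0.75 ± 0.13, adjusted p = 0.000595), and Slc22a5, the carnitine carrier (-0.99 ± 0.24, adjusted p = 0.0096). Slco2a1, a prostaglandin carrier, changed by 0.32 ± 0.10 (lost, adjusted p up to 0.208, without Control 40, 46 or 49 or LPS 4, 5 or 6 or the late-clock libraries). Of 15 bile acid genes 5 were higher (3 without Control 49 and 3 with Selfox left out of the fit). Cyp7b1, of the alternative synthesis pathway, lay at 2.14 to 6.79 CPM (median 4.01) in Control and 7.17 to 12.6 CPM (median 8.89) in LPS, without overlap (1.12 ± 0.21, adjusted p = 0.00112). Akr1d1, the steroid reductase, lay at 595 to 1076 CPM (median 814) in Control and 709 to 2585 CPM (median 1458) in LPS (0.93 ± 0.23, adjusted p = 0.00949). Cyp27a1 changed by 0.41 ± 0.10 (0.25 without the late-clock libraries, lost, adjusted p = 0.113, without the late-clock libraries). Cyp39a1 changed by 0.35 ± 0.095 (lost, adjusted p = 0.0507, without Control 49). Nr1h4, the bile acid receptor FXR, changed by 0.40 ± 0.12 (lost, adjusted p up to 0.079, without Control 40, 46, 49 or 52 or LPS 7). Cyp7a1, the rate-limiting enzyme of the classical pathway, was not called (0.87 ± 0.39, adjusted p = 0.141, 1.34 without Control 55, but called, adjusted p down to 0.012, without Control 55 or the late-clock libraries), nor was Abcb11, the canalicular export pump (0.05 ± 0.12, adjusted p = 0.822).

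Periportal nitrogen metabolism rose. Of 20 urea cycle and periportal genes 9 were called, all higher, with a median of 0.33. Cps1, which starts the urea cycle, lay at 2595 to 4451 CPM (median 4187) in Control and 4765 to 7355 CPM (median 5641) in LPS. Ass1, argininosuccinate synthase, lay at 729.6 to 1377 CPM (median 1159) in Control and 1475 to 1926 CPM (median 1704) in LPS. Uroc1, of histidine breakdown, lay at 151 to 199 CPM (median 174) in Control and 207 to 278 CPM (median 259) in LPS. Cdh1, the E-cadherin of periportal hepatocytes and ducts, lay at 60.2 to 91.7 CPM (median 78.0) in Control and 104 to 170.2 CPM (median 122) in LPS. None of these 4 overlapped between groups (0.59 ± 0.13, adjusted p = 0.00426, 0.61 ± 0.12, adjusted p = 0.00163, 0.51 ± 0.11, adjusted p = 0.00403, and 0.68 ± 0.15, adjusted p = 0.00399). Gls2, liver glutaminase, changed by 0.57 ± 0.14 (lost, adjusted p = 0.0856, without the late-clock libraries). Nags, which activates Cps1, changed by 0.56 ± 0.18 (lost, adjusted p up to 0.081, without Control 41, 46, 49 or 52 or LPS 1, 2 or 5). Gldc, the glycine decarboxylase, rose by 0.71 ± 0.19 (adjusted p = 0.0144). Of 19 pericentral and Wnt-responsive markers Notum, a Wnt inhibitor, rose (0.59 ± 0.14, adjusted p = 0.00613), while Glul, the pericentral glutamine synthetase (-0.06 ± 0.24, adjusted p = 0.893), and Cyp2e1 (0.18 ± 0.23, adjusted p = 0.662) were not called. Of 19 hepatocyte transcription factors Nr1h4 alone was called, and Hnf4a was not (-0.23 ± 0.10, adjusted p = 0.116, but called, adjusted p = 0.0365, with limma voom).

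Of 36 amino acid catabolism genes 10 were higher, or 6 without Control 41, 46 or 49 and 6 with Selfox left out of the fit, and 1 was lower. Genes of the kynurenine pathway of tryptophan were among them. Kmo, the hydroxylase of kynurenine, lay at 72.4 to 103 CPM (median 95.8) in Control and 110.1 to 190.2 CPM (median 154) in LPS. Afmid, the formamidase before it, lay at 57.1 to 94.8 CPM (median 66.6) in Control and 99.0 to 138 CPM (median 118) in LPS. Neither overlapped between groups (0.69 ± 0.13, adjusted p = 0.00123, and 0.74 ± 0.15, adjusted p = 0.00193). Haao, the dioxygenase after Kmo, rose by 0.43 ± 0.093 (adjusted p = 0.00361). Tdo2, which opens the pathway, changed by 0.78 ± 0.24 (lost, adjusted p up to 0.0834, without Control 41, 46, 49, 52 or 55 or LPS 1, 4 or 6 or the late-clock libraries). Kynu, the kynureninase at the branch, changed by -0.63 ± 0.16 (lost with Selfox left out of the fit). Hpd, of tyrosine breakdown, lay at 628 to 893 CPM (median 711) in Control and 959.6 to 1384 CPM (median 1249) in LPS, without overlap (0.69 ± 0.12, adjusted p = 0.000974). Mccc1 and Mccc2, the subunits of a carboxylase of leucine breakdown, rose by 0.30 ± 0.073 and 0.42 ± 0.084 (adjusted p = 0.00848 and 0.00193). Of 22 genes of folate, serine, methionine and glycine metabolism 6 were higher, or 3 without Control 46 or 49, and 2 lower. Bhmt2, a homocysteine methyltransferase, lay at 334 to 417 CPM (median 387) in Control and 458 to 555 CPM (median 526) in LPS. Aldh1l1, which oxidises formyl-tetrahydrofolate, lay at 114 to 146 CPM (median 124) in Control and 162 to 292 CPM (median 232) in LPS. Both rose without overlap (0.44 ± 0.071, adjusted p = 0.000399, and 0.82 ± 0.16, adjusted p = 0.00184), and Sardh, sarcosine dehydrogenase, rose by 0.73 ± 0.12 (adjusted p = 0.000369). Phgdh, the first enzyme of serine synthesis, changed by -1.63 ± 0.49 (-1.07 without Control 46, lost, adjusted p up to 0.166, without Control 46 or LPS 2, 4 or 7 or the late-clock libraries).

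Of 31 glycolysis, glycogen and glucose release genes 9 were higher, or 3 to 5 without Control 40, 41, 46, 49 or 52 or LPS 1 or 7, and 2 lower. Insr, the insulin receptor, lay at 69.4 to 78.6 CPM (median 72.6) in Control and 85.2 to 106 CPM (median 99.96) in LPS. Pc, pyruvate carboxylase, lay at 609 to 769 CPM (median 676) in Control and 449 to 561 CPM (median 477) in LPS. Both separated the groups, in opposite directions (0.41 ± 0.06, adjusted p = 0.000217, and -0.48 ± 0.091, adjusted p = 0.00139). Slc2a2, the glucose carrier of hepatocytes, rose by 0.67 ± 0.14 (adjusted p = 0.00369). Pklr, the liver pyruvate kinase, changed by 1.68 ± 0.53 (2.702 without the late-clock libraries and 2.73 without Control 55, lost, adjusted p up to 0.09, without Control 40, 41, 46, 49 or 52 or LPS 1, 2, 3, 5 or 7). Khk, ketohexokinase, changed by 0.49 ± 0.14 (lost, adjusted p up to 0.0577, without Control 49 or 52). Ldha, lactate dehydrogenase, changed by -0.53 ± 0.15 (lost, adjusted p up to 0.116, without Control 40 or the late-clock libraries). Pck1, of glucose synthesis, was not called (-0.23 ± 0.29, adjusted p = 0.644). In the growth hormone axis Igf1, the growth factor of hepatocytes, lay at 759 to 1168 CPM (median 946) in Control and 481 to 892 CPM (median 739) in LPS (-0.45 ± 0.13, adjusted p = 0.0247, lost, adjusted p up to 0.15, without Control 41 or 46 or the late-clock libraries).

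Of 18 clock genes 3 were higher. Bhlhe40, a repressor that also responds to insulin and hypoxia, lay at 43.9 to 159 CPM (median 68.7) in Control and 136 to 340.1 CPM (median 241) in LPS. All LPS libraries but 1 were above every Control library (1.47 ± 0.26, adjusted p = 0.000955), whereas Per2 changed by 1.84 ± 0.55 (lost, adjusted p up to 0.0722, without Control 40, 41, 46, 49 or 52 or LPS 5 or 6). Dbp was not called (1.59 ± 1.08, adjusted p = 0.344, 3.53 without Control 55, but called, adjusted p = 0.0351, without Control 55), and its estimate was -0.32 without the late-clock libraries. Arntl was not called either (-0.02 ± 0.52, adjusted p = 0.984). The count of 3 became 5 without Control 55. The E-box CACGTG, whose letters read the same on both strands, was present in 4 of 14 clock gene promoters (28.6%), Bhlhe40 among them, and in 9.43% of those of all genes tested. Of 22 immediate early genes Klf10, a factor induced by glucose and TGF-beta, lay at 11.7 to 44.4 CPM (median 14.4) in Control and 48.6 to 122 CPM (median 75.9) in LPS. It rose 4.31-fold without overlap (2.11 ± 0.33, adjusted p = 0.000389). Jund changed by 0.72 ± 0.19 (lost, adjusted p = 0.0519, without the late-clock libraries). Fosb changed by -1.43 ± 0.45 (lost, adjusted p up to 0.155, without Control 40 or 52 or LPS 2, 5 or 7 or the late-clock libraries). Fos (-0.76 ± 0.37, adjusted p = 0.173), Egr1 (0.78 ± 0.51, adjusted p = 0.326) and Myc (0.01 ± 0.24, adjusted p = 0.977) were not called.

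Cell cycle genes were lower. Of 36 genes 10 were called, all lower, with a median of -0.66, and 35 of 36 estimates were below 0. Ccnd1, cyclin D1 of the G1 phase, lay at 41.5 to 83.9 CPM (median 60.6) in Control and 24.2 to 54.5 CPM (median 25.0) in LPS, with 6 of 7 LPS libraries below every Control library (-0.93 ± 0.25, adjusted p = 0.0168). Cdk2, the kinase of S phase entry, lay at 12.3 to 15.8 CPM (median 13.8) in Control and 8.14 to 12.2 CPM (median 10.2) in LPS, without overlap (-0.43 ± 0.092, adjusted p = 0.00304). Mcm7, of the replication helicase, fell (-0.46 ± 0.12, adjusted p = 0.0123). Mki67, the proliferation antigen, lay at 3.06 to 11.3 CPM (median 6.17) in Control and 1.57 to 6.21 CPM (median 2.68) in LPS (-1.12 ± 0.33, adjusted p = 0.025, lost, adjusted p up to 0.0776, without Control 46 or 49). Aurkb, a mitotic kinase, changed by -1.17 ± 0.34 (lost, adjusted p up to 0.0706, without Control 49 or 52). The count of 10 became 3 to 5 without Control 40, 46 or 49 or LPS 1, 4 or 7, 17 without Control 55, 6 with Selfox left out of the fit, 18 with DESeq2, 6 without a low-count filter and 18 without the late-clock libraries. Of 15 p53 targets 2 were higher. Sesn1, a stress-induced inhibitor of mTORC1, rose by 0.62 ± 0.17 (adjusted p = 0.0152), and Cdkn1a was not called (-0.40 ± 0.45, adjusted p = 0.597).

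Of 26 genes of the unfolded protein response 4 were lower (2 without Control 52 or LPS 5), and of 11 cytosolic and mitochondrial chaperones 2 were lower and 1 higher. Hsph1, a nucleotide exchange factor of the cytosol, lay at 55.9 to 128 CPM (median 109) in Control and 40.6 to 64.0 CPM (median 47.1) in LPS. Hspa8, the constitutive HSP70, lay at 362 to 701 CPM (median 557) in Control and 244 to 371 CPM (median 320.4) in LPS. For both 6 of 7 LPS libraries were below every Control library (-1.04 ± 0.17, adjusted p = 0.000437, and -0.83 ± 0.15, adjusted p = 0.000974). Creld2, of the endoplasmic reticulum, lay at 34.8 to 49.7 CPM (median 37.5) in Control and 14.9 to 32.7 CPM (median 21.1) in LPS, without overlap (-0.85 ± 0.17, adjusted p = 0.00214). Syvn1, a ligase of protein disposal, fell (-0.33 ± 0.089, adjusted p = 0.0144). Hspa5, the chaperone BiP, changed by -0.33 ± 0.10 (lost, adjusted p up to 0.169, without Control 52 or LPS 5 or 6 or the late-clock libraries). Hyou1 changed by -0.46 ± 0.14 (lost, adjusted p up to 0.0783, without Control 52 or LPS 5). Ddit3, or CHOP, was not called (0.63 ± 0.22, adjusted p = 0.0543, but called, adjusted p down to 0.0268, without Control 40 or LPS 3 or 4, with a minimum count of 50 or with DESeq2). Of 18 NRF2 and pentose phosphate genes 3 were higher (16.7%) and 2 lower (11.1%), against 7.71% and 6.99% of all genes. Nfe2l2, which encodes NRF2, rose without overlap (46.8 to 79.5 CPM in Control, median 63.5, and 89.7 to 125 CPM in LPS, median 106, 0.77 ± 0.16, adjusted p = 0.00212). Tkt, transketolase, rose by 0.84 ± 0.19 (adjusted p = 0.00533), while Nqo1 (0.94 ± 0.48, adjusted p = 0.193) and Hmox1 (-0.08 ± 0.36, adjusted p = 0.905) were not called. Akr1b8, an aldo-keto reductase, fell (-1.45 ± 0.40, adjusted p = 0.0188). Slc7a11, the cystine importer, changed by -2.58 ± 0.74 (-1.62 without Control 46, lost, adjusted p up to 0.133, without Control 46 or the late-clock libraries). Of 13 hypoxia-responsive genes 2 were higher (15.4%) and 1 lower (7.69%). Pdk1 rose by 0.58 ± 0.14 (adjusted p = 0.00797) and Ankrd37 fell (-1.79 ± 0.37, adjusted p = 0.00279). Vegfa was not called (-0.01 ± 0.093, adjusted p = 0.972). Bco2, which cleaves carotenoids, rose without overlap (10.9 to 16.9 CPM in Control, median 13.5, and 21.2 to 30.8 CPM in LPS, median 22.5, 0.87 ± 0.17, adjusted p = 0.00169). Scly, which recovers selenium from selenocysteine, rose by 0.52 ± 0.12 (adjusted p = 0.00688) and Lamp1, a membrane protein of lysosomes, rose without overlap (236 to 285 CPM in Control, median 256, and 298 to 348 CPM in LPS, median 315, 0.32 ± 0.059, adjusted p = 0.00109). None of 18 iron-handling genes was called by edgeR or DESeq2, and 4 had an unadjusted p under 0.05. The count of lower members became 2 without Control 55, 2 with limma voom and 1 without the late-clock libraries.

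Of 51 cytosolic ribosomal protein genes 25 were called, all higher, with a median of 0.30, and 50 of 51 estimates were above 0. Rpl3, of the large subunit, lay at 211 to 303 CPM (median 248) in Control and 296 to 358 CPM (median 327) in LPS (0.36 ± 0.085, adjusted p = 0.00727). The changes were small, and the list medians of the libraries overlapped, at -0.27 to 0.33 in Control and 0.14 to 0.44 in LPS. The count of 25 became 11 to 16 without Control 41, 46, 49 or 52 or LPS 1 and 16 with Selfox left out of the fit. Of 36 nuclear-encoded genes of oxidative phosphorylation 13 were called, all higher, with a median of 0.18. Ndufv2, of complex I, lay at 61.4 to 96.2 CPM (median 72.7) in Control and 98.6 to 117 CPM (median 101) in LPS, without overlap (0.49 ± 0.10, adjusted p = 0.00276). Cox4i1, of complex IV, changed by 0.28 ± 0.079 (lost, adjusted p = 0.0574, without Control 49). The count of 13 became 2 to 8 without Control 41, 46, 49 or 52 or LPS 1, 2, 3, 4 or 6, 8 with Selfox left out of the fit, 22 with limma voom and 6 with upper-quartile factors. At equal depth 27 of the ribosomal and 11 of the oxidative phosphorylation genes were called higher.

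Several of the largest changes lay outside the lists. Unc5cl, a death-domain protein, lay at 1.85 to 3.35 CPM (median 2.38) in Control and 6.01 to 13.8 CPM (median 7.24) in LPS, without overlap (1.91 ± 0.28, adjusted p = 0.00023). Mbp, myelin basic protein, lay at 1.69 to 6.84 CPM (median 2.71) in Control and 6.32 to 22.5 CPM (median 15.2) in LPS (2.13 ± 0.40, adjusted p = 0.00149). Kcnk5, a potassium channel, rose by 1.93 ± 0.53 (3.08 without Control 55, lost with Selfox left out of the fit), and Control 55 (48.3 CPM) was its highest Control library by far. Wfdc21, a whey acidic protein family member, changed by 1.91 ± 0.43 (lost, adjusted p = 0.0546, without the late-clock libraries). Lrtm2 changed by 1.91 ± 0.49 (2.89 without Control 55, lost with Selfox left out of the fit). Aacs, the cytosolic acetoacetyl-CoA synthetase, changed by 2.32 ± 0.65 (1.37 without LPS 5, lost, adjusted p up to 0.0744, without Control 49 or LPS 5). On the lower side Cyp17a1, the steroid 17-hydroxylase, lay at 7.13 to 45.6 CPM (median 30.8) in Control and 2.04 to 9.25 CPM (median 7.16) in LPS (-2.19 ± 0.37, adjusted p = 0.000657). Adcy10, the bicarbonate-sensing adenylyl cyclase, lay at 6.59 to 44.2 CPM (median 17.6) in Control and 2.22 to 7.14 CPM (median 3.95) in LPS (-2.16 ± 0.46, adjusted p = 0.00368). LPS overlapped Control in 4 libraries for Cyp17a1 and in 1 for Adcy10. Cib2, a calcium-binding protein, changed by -2.24 ± 0.63 (lost, adjusted p = 0.154, without the late-clock libraries), and an unnamed gene model, LOC108348266, by -2.74 ± 0.73 (lost, adjusted p = 0.0603, without the late-clock libraries).

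The comparison with Selfox asks which LPS values also differ from a second group treated for 8 weeks. Of 15079 genes 2187 were called between LPS and Selfox (14.5%), 1152 of them higher in LPS and 1035 lower. Both comparisons use the same LPS libraries, so their values are only set side by side. Called in both were 416 genes: 184 with LPS above both groups, 178 with LPS below both and 54 otherwise. Siglec10, an inhibitory sialic acid receptor of leukocytes, lay at 0.357 to 1.05 CPM (median 0.549) in Control and 1.20 to 3.42 CPM (median 2.77) in LPS, and at 0.113 to 0.611 CPM (median 0.238) in Selfox. It was above every Control library in all 7 LPS libraries (1.97 ± 0.33, adjusted p = 0.000535), and LPS minus Selfox was 3.15 ± 0.28, adjusted p = 1.23e-07. Adgre1 lay at 13.7 to 21.5 CPM (median 16.6) in Selfox, and the LPS minus Selfox change was 1.94 ± 0.16, adjusted p = 2.78e-08. Most of its list shared that direction: 15 of 22 Kupffer cell and macrophage markers were higher in LPS than in Selfox. Against Control 18 of the 22 estimates were below 0. Of 31 T and NK cell markers 17 were higher in LPS than in Selfox and 1 was lower. Dnase2, the lysosomal DNase, lay at 8.50 to 10.2 CPM (median 9.76) in Control and 10.7 to 13.7 CPM (median 11.3) in LPS, and at 6.67 to 8.72 CPM (median 7.54) in Selfox. The changes were 0.29 ± 0.074, adjusted p = 0.0103 against Control (lost, adjusted p = 0.0902, without the late-clock libraries) and 0.63 ± 0.064, adjusted p = 6.66e-07 against Selfox.

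Other genes higher than in both groups were Siglec5 (0.68 ± 0.23 against Control, lost, adjusted p up to 0.11, without Control 40, 41, 46, 52 or 55 or LPS 1, 2, 3, 4, 5 or 7 or the late-clock libraries) and Art4, a blood group antigen (0.55 ± 0.17 against Control, lost, adjusted p up to 0.0811, without Control 41, 46, 52 or 55 or LPS 4 or 7 or the late-clock libraries). Against Selfox they stood at 1.60 ± 0.20, adjusted p = 1.32e-05, and 1.26 ± 0.14, adjusted p = 3.24e-06. The gene models AABR07061134.1, AABR07051716.1 and AABR07051548.2 rose from at most 0.503, 0.188 and 0.484 CPM in Control by 2.75 ± 0.39, 3.20 ± 0.54 and 1.78 ± 0.38. Their LPS minus Selfox changes were 2.59 ± 0.30, adjusted p = 5.80e-06, 3.52 ± 0.43, adjusted p = 9.54e-06, and 2.51 ± 0.32, adjusted p = 1.31e-05. Of the genes lower than in both, Gria3, an AMPA receptor subunit, lay at 3.04 to 6.37 CPM (median 4.37) in Control and 0.527 to 2.77 CPM (median 2.18) in LPS, and at 4.52 to 13.1 CPM (median 6.71) in Selfox. Cdkn2c, an inhibitor of the cyclin D kinases, lay at 1.01 to 1.77 CPM (median 1.31) in Control and 0.389 to 0.675 CPM (median 0.498) in LPS, and at 0.819 to 1.73 CPM (median 1.23) in Selfox. Both had every LPS library below every Control library (-1.26 ± 0.30, adjusted p = 0.00741, and -1.37 ± 0.21, adjusted p = 0.000253). Prrg4, a vitamin K-dependent membrane protein, lay at 0.948 to 4.87 CPM (median 2.96) in Control and 0.787 to 1.38 CPM (median 1.05) in LPS, and at 3.22 to 8.64 CPM (median 4.49) in Selfox (-1.53 ± 0.29, adjusted p = 0.00149 against Control, and -2.22 ± 0.27, adjusted p = 1.15e-05 against Selfox). Diaph3, a formin of the actin skeleton, changed by -1.69 ± 0.31 against Control. Cd46, a complement regulator, changed by -0.79 ± 0.22 (lost, adjusted p = 0.0554, without Control 46), and Mme, neprilysin, by -1.64 ± 0.51 (lost, adjusted p up to 0.148, without Control 46 or 52 or LPS 1, 2, 5, 6 or 7 or the late-clock libraries). Their LPS minus Selfox values were -1.88 ± 0.28, adjusted p = 0.000101, -1.57 ± 0.20, adjusted p = 1.54e-05, and -3.28 ± 0.48, adjusted p = 0.000122. Akr1b8 and Loxl2 were also lower than in Selfox (-2.91 ± 0.37, adjusted p = 1.81e-05, and -1.07 ± 0.14, adjusted p = 1.42e-05).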

How the data were processed

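RNA of whole liver was sequenced after a stranded mRNA library preparation, per the labels' protocols. The deposited values are raw read counts per gene in 28913 rows, 1 column per library. Per the submitters' processing notes, reads were checked with FastQC, trimmed with Trim Galore, aligned with STAR 2.7.9a and counted by featureCounts (Subread 2.0.3). Genome build, annotation and strand setting are not given in the sources used, and genes that overlap or lie antisense to others are uncertain, as are near-identical copies. Even numbers made up 68.34% to 74.88% of counts from 1 to 9, so low counts may hold both ends of a pair, and a run with counts divided by 2 was made.

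Genes were kept with filterByExpr of edgeR 4.0.16 (R 4.3.3, minimum count 10), which left 15079 of 21753 genes with any count. Counts were scaled by TMM factors, and Control (6), LPS (7) and Selfox (10) were fitted together with the robust quasi-likelihood test, adjusted by Benjamini-Hochberg over all genes, with a threshold of 0.05. SEs were obtained from each log2 fold change and its F statistic. List medians use log2 CPM with a prior count of 2. Alternatives were RLE (the size factors of DESeq2) and upper-quartile factors, no filter, a minimum count of 50, DESeq2 1.42.0, limma 3.58.1 voom with sample weights, LPS and Control fitted without Selfox, thinning to equal depth, each library left out, and all late-clock libraries left out. The script was tested on simulated data with few genes changed, in which 4 of 168 calls were false.

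Genes are named by rule: the 15 largest rises and falls among called genes whose mean log2 CPM was 1 or more, the 10 lowest adjusted p-values in each direction, up to 8 called members of each list, regulators, and the 8 genes per direction of lowest p against Selfox. Some genes that the rule selects are not reported here. Genes named as not called were chosen after their values were seen. The lists, and the comparison itself, were chosen with earlier results of these data known. Promoter sequences are RefSeq, build GRCr8, matched by symbol for 10307 of the 15079 genes, and the build of the counts may differ.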

Additional observations from a re-analysis of the deposited data

Results flagged for a closer look

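For each of the 316 genes named, the highest or lowest library of each group was set against the rest by the ratio of its gap to the range of the group, on log2 CPM. A library stood apart (ratio above Dixon's critical value for 6 Control or 7 LPS libraries) in 57 of 632 pairs of gene and group (9.02%), where chance alone flags about 1 in 20. Control 55 accounted for 31 of them. It was high above the other Control libraries for 14 genes, at 18.45 CPM for Acat2, 965.8 CPM for Acly, 80.02 CPM for Acss2, 737.8 CPM for Cyp7a1, 34.2 CPM for Dbp, 1550 CPM for Fasn, 337.2 CPM for Fdps, 762.6 CPM for Hmgcs1, 48.27 CPM for Kcnk5, 9.136 CPM for Mvk, 12.71 CPM for Per2, 37.8 CPM for Sesn1, 109.2 CPM for Slc25a1 and 230.6 CPM for Tkt. It was low for 17 genes, at 256.6 CPM for Acaa2, 260.2 CPM for Acadl, 47.07 CPM for Ahr, 7130 CPM for Apob, 6.009 CPM for Arntl, 12.55 CPM for Cdkn1a, 140 CPM for Crot, 134.4 CPM for Cyp4a1, 596.2 CPM for Cyp4a2, 322.9 CPM for Cyp4a3, 67.66 CPM for Eci1, 4.937 CPM for Ephx2, 275.9 CPM for Hadha, 55.94 CPM for Hsph1, 390.2 CPM for Lcat, 45.41 CPM for Mmp14 and 1.854 CPM for Nqo1. Among the genes where it was high are those of sterol and fatty acid synthesis, and among those where it was low are fatty acid oxidation genes and PPAR-alpha targets, the directions in which the LPS group differed from Control.

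Control 49 stood apart for no gene, and the other Control libraries for 1 to 4 genes each. Control 40 stood apart as high for Fgb (9073 CPM), Hmox1 (101.5 CPM) and Tdo2 (1757 CPM) and as low for Slc22a23 (149.5 CPM). Control 41 stood apart as high for Vegfa (219.1 CPM) and as low for Slc22a8 (229.5 CPM). Control 46 stood apart as low for Cpb1 (0.06269 CPM). Control 52 stood apart as high for Irak1 (111.4 CPM) and Serpinc1 (2325 CPM) and as low for Jchain (1.962 CPM).

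In LPS no library was apart for more than 5 of the genes. LPS 1 stood apart as high for Gsta4 (92.44 CPM). LPS 4 stood apart as high for Col3a1 (409.5 CPM) and Retsat (152.2 CPM) and as low for Cyp39a1 (158.4 CPM), Oas2 (0.2297 CPM) and Pdk1 (36.77 CPM). LPS 5 stood apart as high for Cdh1 (170.2 CPM), Mid1ip1 (184.9 CPM) and Mx2 (26.53 CPM). LPS 6 stood apart as high for Lpin2 (108.3 CPM) and as low for Gpam (27.89 CPM), Mmp14 (24.45 CPM), Plin2 (53.86 CPM) and Stat3 (115 CPM). LPS 7 stood apart as low for Acaa2 (131 CPM) and Igfals (98.68 CPM).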

How the results depend on the processing

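Relative to 2217 genes called between LPS and Control (1163 higher, 1054 lower), leaving out 1 library gave 1409 (without Control 49) to 2723 (without Control 55) genes, 707 to 1430 of them higher and 702 to 1293 lower. Without Control 49, 1382 of the 2217 genes were still called. The other settings gave 1824 (no low-count filter) to 3119 (limma voom), each within 1.5 times of 2217. With upper-quartile factors 989 genes were higher and 1194 lower. Without the late-clock libraries 2209 genes were called, 1616 of them among the 2217, and between LPS and Selfox 1434 rather than 2187. Leaving out any 1 library there gave at least 1830 genes, and no count moved by 1.5 times.

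Of 251 called genes named in the text, 158 stayed called in every alternative run and 183 in every leave-one-out fit. The call was lost without the late-clock libraries by 53, with LPS and Control fitted without Selfox by 41, without a low-count filter by 25, with limma voom by 12, with upper-quartile factors by 7 and at equal depth by 4. None of the 251 changed direction in any alternative. No paired analysis was possible because the LPS and Control libraries share no replicate number. LPS libraries had more counts than any Control library. The low-count filter was applied over all 3 groups, so a gene could pass it through LPS or Selfox libraries alone. Counts were also simulated with these group sizes and depths. Of the genes changed in LPS, 38 of 67 at 1.5-fold, 61 of 67 at 2-fold and 65 of 66 at 4-fold were called. Small changes may thus be missed. The simulation changed no other gene, kept Selfox at the Control level and drew each library independently. Its rates may therefore not hold for these data.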

Other observations

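The shares of called genes over all genes tested were 7.71% higher and 6.99% lower. Of 19 MHC class I and antigen processing genes 1 was higher (5.26%) and 2 were lower (10.5%), with a median log2 fold change of -0.06. Of 24 lysosome and autophagy genes 3 were higher (12.5%), Lamp1 among them. Of 14 genes of selenoproteins and selenium handling 3 were higher (21.4%), Scly among them, and 1, Dio1, was lower (7.14%). Of 12 retinoid genes 2 were higher (16.7%), Bco2 among them, and 1 was lower (8.33%). None of 6 mesothelial markers and none of 10 erythroid and platelet markers was called by edgeR, with 1 and 3 of them at an unadjusted p under 0.05. DESeq2 and limma voom called none of the former and 1 of the latter. Without Control 40 or LPS 1, 1 mesothelial marker was higher. Without Control 49, LPS 6, LPS 7 or the late-clock libraries, and with Selfox left out of the fit, 1 erythroid or platelet marker was higher.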
